A study of Mus musculus with 4 samples.

Results

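The eukaryotic translation initiation factors were examined in mouse lenses without Tdrd7, whose Tudor-domain product sits in cytoplasmic RNA granules and whose loss causes cataract. The genes were taken as every row of the deposited expression table whose symbol is Eif followed by a digit, leaving out the Y chromosome and pseudogene names that contain -ps. This gave 51 genes among the 10790 in the table. RNA was measured in whole lenses at postnatal day 4 from Tdrd7-/- mice, called Tdrd7 null here, and from wild-type control mice, with 2 libraries of each genotype and 15 lenses pooled in each library. The labels call the libraries biological replicates, so the tests measure the spread between pools of lenses and not between animals. The sources used here give no strain, no sex and no description of the Tdrd7 allele.

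Initiation brings the initiator tRNA, the ribosome and the start codon of an mRNA together. The factor eIF2 carries the initiator tRNA to the small ribosomal subunit, where eIF1, eIF1A, eIF3 and eIF5 assemble, while the eIF4F complex binds the mRNA cap, unwinds the leader and lets the small subunit scan to the start codon. Phosphorylation of eIF2 by stress kinases slows the first branch, and the eIF4E-binding proteins (4E-BPs) restrain the second when the kinase complex mTORC1 is inactive. Lens fiber cells make crystallins in very large amounts and then lose their nuclei and organelles, so that their late protein synthesis rests on mRNA already made.

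Values are reads per gene divided by 1 factor for each library, called scaled reads, and are not corrected for gene length. The libraries held 39080159 and 33920522 reads in the table for the Tdrd7 null lenses and 41096488 and 42767535 for the control lenses. Tdrd7 itself was at 165 and 96.6 scaled reads in the null libraries, against 1188 and 972 in the control libraries, which is -3.08 as a log2 fold change (limma adjusted p = 1.17e-06, standard error, SE, 0.168). All 12 fiber markers and all 7 lens epithelium markers on the lists used were in the table, and the defining markers of macrophages, blood and retina were not. The fiber marker Lim2 was lower (log2 fold change -0.25, limma adjusted p = 0.0413), and of the epithelial markers Foxe3 was lower (-0.43, 0.00215) and Gja1 higher (0.33, 0.00692). Markers of pericytes (3 of 5 in the table) summed to 30.3 and 33.5 scaled reads in null lenses and 45.5 and 35.7 in control lenses, and those of the ciliary body and iris (3 of 8) to 96.3 and 91.8 in null lenses and 110.3 and 113.9 in control lenses. On each of those lists 2 markers fell, the endothelial sums (6 of 8) were 13.7 and 19.2 in null lenses against 18.4 and 11.2 in control lenses, and the part of these tissues in the results below was not tested. Crystallins took 62.9% and 59.7% of the reads in null lenses and 62.3% and 63.0% in control lenses.

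Of the 51 genes, 14 were higher and 1 was lower in Tdrd7 null lenses at an adjusted p under 0.05, and 36 did not pass (limma on log2(scaled reads + 1), adjusted over all 10696 genes tested; all 51 passed the filter on low values). The 14 make 27.5% of the initiation factors, beside 10.1% of all tested genes called higher, and the 1 lower gene stands beside 7.88% of all tested genes called lower (18.0% called either way). With libraries scaled without crystallins, 10 of the 51 were higher and 2 lower, and among all tested genes 766 were higher and 1262 lower, against 1077 higher and 843 lower as deposited. The higher genes were Eif1a, Eif1ax, Eif2a, Eif2s1, Eif3a, Eif3e, Eif3j1, Eif4a1, Eif4a2, Eif4e, Eif4g2, Eif5, Eif5a2 and Eif5b, and the lower gene was Eif4enif1. The changes were small, between 1.13-fold for Eif4g2 and 1.39-fold for Eif1a among the higher genes. The median of the 51 log2 fold changes was 0.00, against -0.01 for the 10696 genes, and 26 of the 51 were positive. Without the intensity trend in limma's prior none of the 51 was called (17 at an unadjusted p under 0.05), 6 were higher without control replicate 1 and 6 without control replicate 2, and 9 without Tdrd7 null replicate 2. Eif1a, Eif2s1, Eif3e, Eif4a1 and Eif4e were called with any 1 library left out; the other 9 higher genes and Eif4enif1 each lost the call without at least 1 of the 4. Both null libraries lay above both control libraries for 21 of the genes (41.2%; 30.2% of all tested genes) and below them for 16 (31.4%; 31.3% of all tested genes).

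The higher calls sat on transcripts of low GC content, and fold change fell with GC content across the whole table. With the trend on GC content and transcript length removed from each library, 1 of the 51 genes was called, Eif4a1. Beside it stand 2.06% of 10656 genes called higher and 1.24% called lower (3.29% either way). At an unadjusted p under 0.05 in limma there were 14 of the 51 (19 as deposited), and the share of all genes at that cut is not given here. The cause of the trend was not tested, and the value with the trend removed is given beside each change of an initiation factor. Of the markers above, Foxe3 was at -0.13 and Gja1 at 0.20 with the trend removed, neither called, and Lim2 had no GC value. No marker of pericytes or of the ciliary body and iris was called with the trend removed. In whole lenses, fewer cells of a type and less RNA per cell cannot be told apart.

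**Figure D1:**
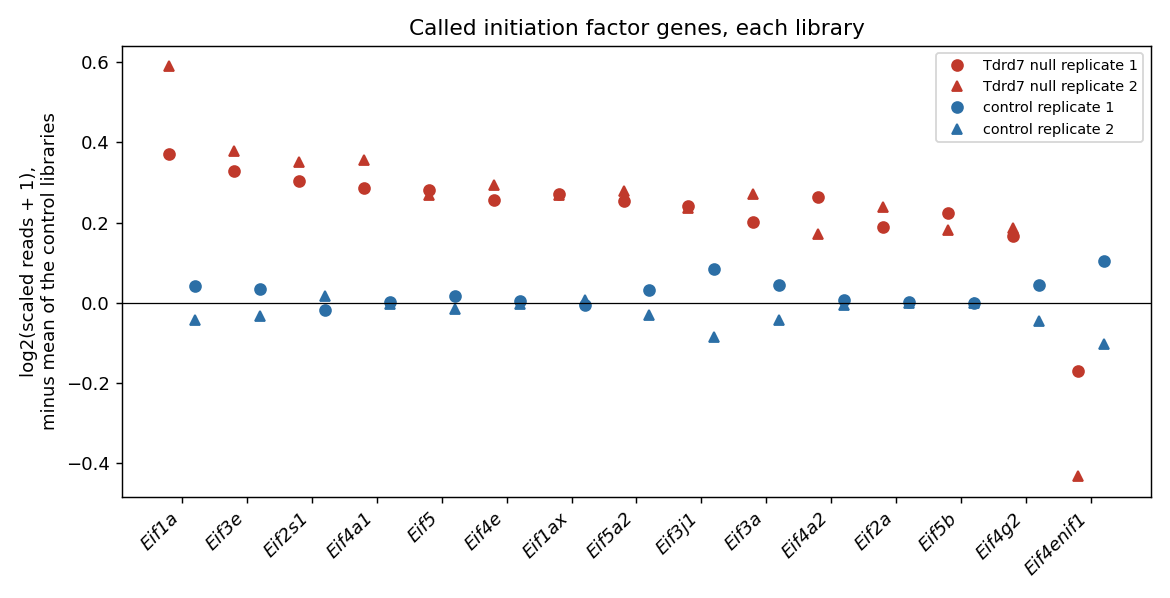
Each called gene on the horizontal axis, with log2(scaled reads + 1) of each of the 4 libraries relative to the mean of the 2 control libraries on the vertical axis (symbols are libraries). For all 14 higher genes both Tdrd7 null libraries lie above both control libraries, and for Eif4enif1 both lie below.

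Of the genes that deliver the initiator tRNA, the α subunit of eIF2 changed most. Eif2s1, which encodes that subunit and carries the serine that the stress kinases phosphorylate, was at 103.7 and 107.1 scaled reads in null lenses and 82.8 and 84.9 in control lenses. The groups did not overlap, and the log2 fold change of 0.33 (SE 0.0526) had a limma adjusted p = 0.00242, against 0.15 with the GC and length trend removed (adjusted p = 0.103). Eif2s3x, the X-linked gene of the γ subunit that holds GTP and the tRNA, read 94.4 and 105.6 in null lenses and 91.1 and 87.3 in control lenses and did not pass (0.16, limma adjusted p = 0.0852). The processed pseudogene Gm2223 shares 35.7% of the 75-nt words of Eif2s3x, so its reads are uncertain. The β subunit, Eif2s2, had overlapping groups, at 106.2 and 89.4 in null lenses and 91.8 and 95.7 in control lenses. The 3 subunits therefore had log2 fold changes of 0.33, 0.06 and 0.16 in the order α, β, γ. With the trend removed the values in that order were 0.15, -0.15 and 0.06, none of them called. Differences between the subunits were not tested.

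Eif2a, a separate factor that can deliver the tRNA without eIF2, was higher at 23.5 and 24.4 scaled reads in null lenses against 20.5 and 20.5 in control lenses (log2 fold change 0.21, SE 0.0647, limma adjusted p = 0.0374). With the trend removed its log2 fold change was 0.02. Eif2d, another alternative tRNA carrier, had overlapping groups at 14.05 and 14.42 in null lenses and 14.11 and 14.43 in control lenses.

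None of the 5 subunits of eIF2B, which reloads eIF2 with GTP, passed the test. Their log2 fold changes ran between -0.11 for Eif2b5, the catalytic subunit, and 0.14 for Eif2b3. Eif2b5 was the highest of the 5, at 31.2 and 33.8 scaled reads in null lenses and 34.1 and 36.1 in control lenses. The 4 kinases that phosphorylate eIF2 did not pass either. Eif2ak1 (HRI, the kinase that answers to heme) was the highest, with 22.4 and 22.0 in null lenses and 20.6 and 20.96 in control lenses, a log2 fold change of 0.09. Eif2ak4 (GCN2, the kinase that answers to amino acid shortage) came nearest to the threshold, at 13.5 and 12.4 in null lenses against 15.2 and 14.5 in control lenses (log2 fold change -0.18, limma adjusted p = 0.112). Eif2ak2 (PKR) and Eif2ak3 (PERK) had overlapping groups.

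Factors of start-site selection and subunit joining included 4 of the higher genes among 8. Eif1a had the highest fold change of the 51. It encodes a form of eIF1A, which helps the small subunit to scan, and was at 32.3 and 37.8 scaled reads in null lenses and 25.6 and 24.1 in control lenses. Null exceeded control by 0.48 on the log2 scale (SE 0.0757, limma adjusted p = 0.00219), and by 0.27 with the trend removed (adjusted p = 0.0504, just outside the threshold). The X-linked gene of the same factor, Eif1ax, read 107.8 and 107.6 in null lenses and 88.9 and 89.6 in control lenses (log2 fold change 0.27, SE 0.0513, limma adjusted p = 0.00500). Both genes of eIF1A were thus higher, with no overlap between the groups; with the trend removed Eif1ax was at 0.10.

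Eif5, the protein that triggers GTP hydrolysis by eIF2 at the start codon, was higher, at 361.3 and 357.7 scaled reads in null lenses and 300.4 and 293.6 in control lenses (log2 fold change 0.27, SE 0.0512, limma adjusted p = 0.00449; 0.13 with the trend removed). Eif5b, the GTPase that joins the large subunit, had more reads than any other of the 51 genes. It was at 1516 and 1472 in null lenses and 1298 and 1297 in control lenses (log2 fold change 0.20, SE 0.0599, limma adjusted p = 0.0341; 0.13 with the trend removed). Eif5b shares 1643 nt of exon with Rev1 on the opposite strand, and the libraries did not mark strand. Eif1, which guards against pairing at wrong start codons, did not pass, at 187.3 and 182.4 in null lenses and 190.9 and 190.8 in control lenses. Its close copy Eif1b, Eif1ad, and Eif6, which keeps free large subunits apart from small ones, did not pass either, with log2 fold changes between -0.12 and 0.05.

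The scaffold complex eIF3, which bridges the small subunit and the mRNA, had 13 subunit genes in the table, of which 3 were higher and none lower. Eif3e had the lowest adjusted p of all 51 genes, and its longest annotated transcript had the lowest GC content, at 36.2%. Its coding part alone had 41.3% GC, which was not the lowest. It was at 86.6 and 89.8 scaled reads in null lenses and 70.4 and 67.2 in control lenses, or 0.35 on the log2 scale (SE 0.0548, limma adjusted p = 0.00208), and 0.11 with the trend removed (adjusted p = 0.236). Eif3a, the largest subunit and the core of the complex, read 324.5 and 340.8 in null lenses and 290.8 and 273.7 in control lenses (log2 fold change 0.24, SE 0.0551, limma adjusted p = 0.0127; 0.17 with the trend removed, adjusted p = 0.0711). Eif3j1, a loosely bound subunit, read 25.6 and 25.5 in null lenses and 22.8 and 20.2 in control lenses (log2 fold change 0.24, SE 0.0714, limma adjusted p = 0.0355; 0.13 with the trend removed). Its value is uncertain, since Eif3j2 shares 37.7% of its 75-nt words and Spg11 overlaps 1107 nt of its exons on the opposite strand. Without control replicate 2 its log2 fold change was 0.15 (limma adjusted p = 0.275).

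The other 10 subunits of eIF3 had log2 fold changes between -0.14 and 0.08. Eif3f, a core subunit, stood just outside the threshold in the other direction, at 80.5 and 79.6 scaled reads in null lenses against 88.5 and 88.0 in control lenses (-0.14, SE 0.0520, limma adjusted p = 0.0818). Eif3b, the scaffold that pairs with Eif3a, was at 121.2 and 116.7 in null lenses and 123.5 and 122.6 in control lenses, and Eif3c at 209.9 and 220.7 in null lenses and 212.0 and 220.1 in control lenses. The log2 fold changes of these subunits were 0.35 for Eif3e, 0.24 for Eif3a, -0.05 for Eif3b and 0.00 for Eif3c, and with the trend removed 0.11 for Eif3e, 0.17 for Eif3a, 0.07 for Eif3b and 0.01 for Eif3c. Differences between subunits were not tested.

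**Figure D2:**
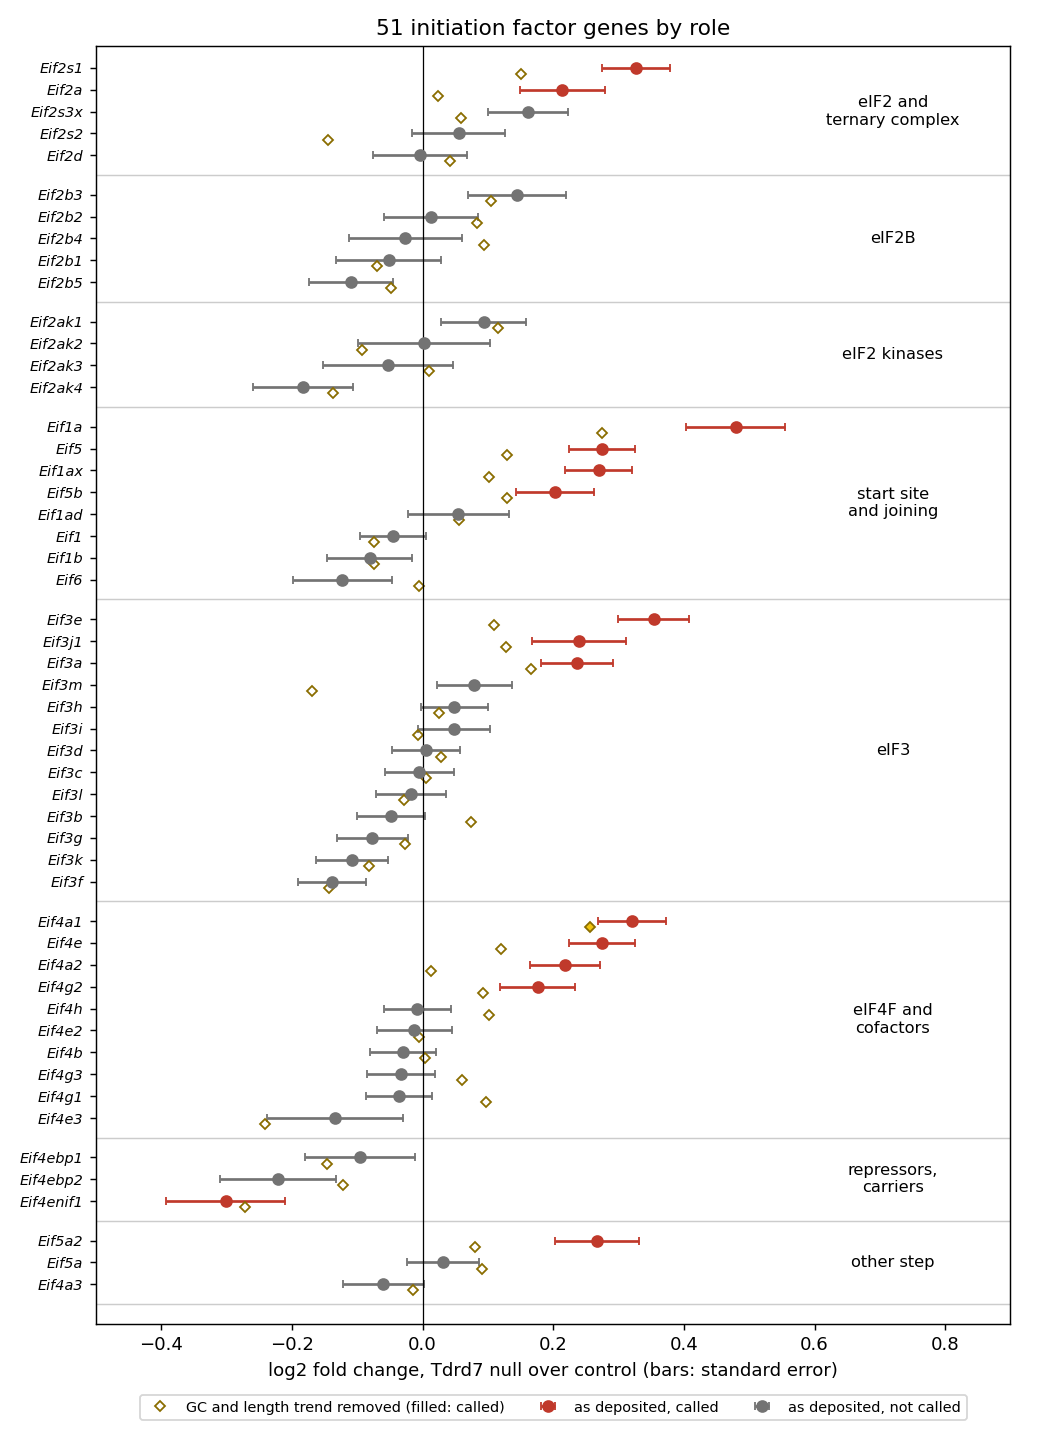
Log2 fold change of each of the 51 genes, Tdrd7 null over control, grouped by role down the page. Circles are the values as deposited, with SE bars, and diamonds the values with the GC and length trend removed. Of the 15 called circles, 14 sit right of 0, and Eif4a1 is the only filled diamond.

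Among the factors that bind and open the cap end of the mRNA, 4 of 10 were higher. Eif4e encodes the cap-binding protein. It was at 169.4 and 173.8 scaled reads in null lenses and 142.0 and 141.3 in control lenses, or 0.27 on the log2 scale (SE 0.0507, limma adjusted p = 0.00449), and 0.12 with the trend removed (adjusted p = 0.164). Its relatives Eif4e2, a cap-binding protein that represses, and Eif4e3 did not pass. Eif4e3 had the fewest reads of the 51 genes, at 3.94 and 3.63 in null lenses and 4.15 and 4.35 in control lenses.

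Eif4a1, the helicase of eIF4F, was at 114.5 and 120.3 scaled reads in null lenses, a mean of 117.4 ± 4.04 (SD, n = 2), and 93.9 and 93.6 in control lenses, a mean of 93.8 ± 0.204 (SD, n = 2). The null libraries were both higher by more than the distance between replicates, by 0.32 on the log2 scale (SE 0.0528, limma adjusted p = 0.00271). With the trend removed it was 0.26 (SE 0.0469, adjusted p = 0.0119), and across 17 other settings it was called in 16, with a highest adjusted p of 0.0589. Of its 75-nt words, 27.7% also occur in other annotated genes, most in the pseudogene Eif4a-ps4 (25.4%), none of which is in the table, and its values are uncertain to that extent. Eif4a2, the second eIF4A helicase, read 230.6 and 216.1 in null lenses and 192.7 and 191.0 in control lenses (log2 fold change 0.22, SE 0.0533, limma adjusted p = 0.0158). With the trend removed the value of Eif4a2 was 0.01 (adjusted p = 0.922), while its transcript has 40.2% GC and that of Eif4a1 46.3%.

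Among the scaffolds, Eif4g2 (DAP5), which lacks the eIF4E-binding part and serves initiation without eIF4E, was at 826.3 and 838.1 scaled reads in null lenses and 759.6 and 713.5 in control lenses. It was the last gene inside the threshold (log2 fold change 0.18, SE 0.0576, limma adjusted p = 0.04999) and was called in 6 of 17 other settings; with the trend removed it was at 0.09 (adjusted p = 0.336). The scaffold of eIF4F itself, Eif4g1, did not pass, at 292.7 and 295.1 in null lenses and 302.3 and 300.5 in control lenses (-0.04). Eif4g3 and the helicase cofactors Eif4b and Eif4h did not pass, with log2 fold changes between -0.03 and -0.01. With the trend removed Eif4g1 was at 0.10 (adjusted p = 0.260), beside 0.12 for Eif4e and 0.01 for Eif4a2. Differences between the parts of eIF4F were not tested.

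Of the 3 genes whose proteins bind and restrain eIF4E, 1 was lower and none higher. Eif4enif1 (4E-T), which carries eIF4E into the nucleus and into P-bodies and represses translation, was at 21.5 and 17.7 scaled reads in null lenses and 26.2 and 22.5 in control lenses. It fell by 0.30 on the log2 scale (SE 0.0916, limma adjusted p = 0.0381), with null libraries below both control libraries. Without Tdrd7 null replicate 2 the log2 fold change was -0.17 (limma adjusted p = 0.252); leaving out control replicate 1 gave -0.20 (limma adjusted p = 0.298). With the trend removed its log2 fold change was -0.27 (adjusted p = 0.112), and 12 of 17 other settings called it. The 4E-BP genes in the table, Eif4ebp1 and Eif4ebp2, also had both null libraries below both control libraries but did not pass. Eif4ebp2 read 6.12 and 5.97 in null lenses and 7.26 and 7.17 in control lenses (-0.22, limma adjusted p = 0.101), and Eif4ebp1 7.82 and 8.08 in null lenses and 8.68 and 8.44 in control lenses (-0.10).

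Of the genes named as initiation factors but known mainly for another step, Eif5a2 was higher. It encodes the less abundant form of eIF5A, a hypusine-bearing protein of elongation and termination, and read 26.1 and 26.6 scaled reads in null lenses and 22.2 and 21.2 in control lenses (log2 fold change 0.27, SE 0.0643, limma adjusted p = 0.0147; 0.08 with the trend removed). Eif5a, the common form, had overlapping groups at 224.1 and 229.2 in null lenses and 213.2 and 230.7 in control lenses. Eif4a3, an anchor of the exon junction complex, did not pass (-0.06).

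Several gene pairs and trios encode versions of the same factor, and their levels were compared as scaled reads per kb of the longest annotated transcript. Of the eIF4A genes, Eif4a2 averaged 82.5 per kb in null lenses and 70.9 in control lenses, above Eif4a1 at 37.1 in null lenses and 29.6 in control lenses. Of the scaffolds, Eif4g2 was at 104.1 in null lenses and 92.1 in control lenses, Eif4g1 at 52.1 in null lenses and 53.5 in control lenses, and Eif4g3 at 17.3 in null lenses and 17.7 in control lenses. The lens at this age thus held more RNA of Eif4a2 and Eif4g2 per length than of Eif4a1 and Eif4g1, in both genotypes. Eif5a was at 157.7 in null lenses and 154.5 in control lenses, against 5.24 in null lenses and 4.32 in control lenses for Eif5a2. Eif1 was at 139.8 in null lenses and 144.4 in control lenses, against 23.8 in null lenses and 25.3 in control lenses for Eif1b. The cap-binding protein Eif4e, at 34.4 in null lenses and 28.4 in control lenses, stood far above its repressor Eif4ebp1, at 3.98 in null lenses and 4.29 in control lenses, and Eif4ebp2, at 1.04 in null lenses and 1.247 in control lenses. Eif4ebp2 was the lowest of the 51 in null lenses, while in control lenses Eif2ak3 was at the same level (1.247). These order the genes within a sample and are a description, since annotated length may not be the length of the transcript in the lens.

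**Figure D3:**
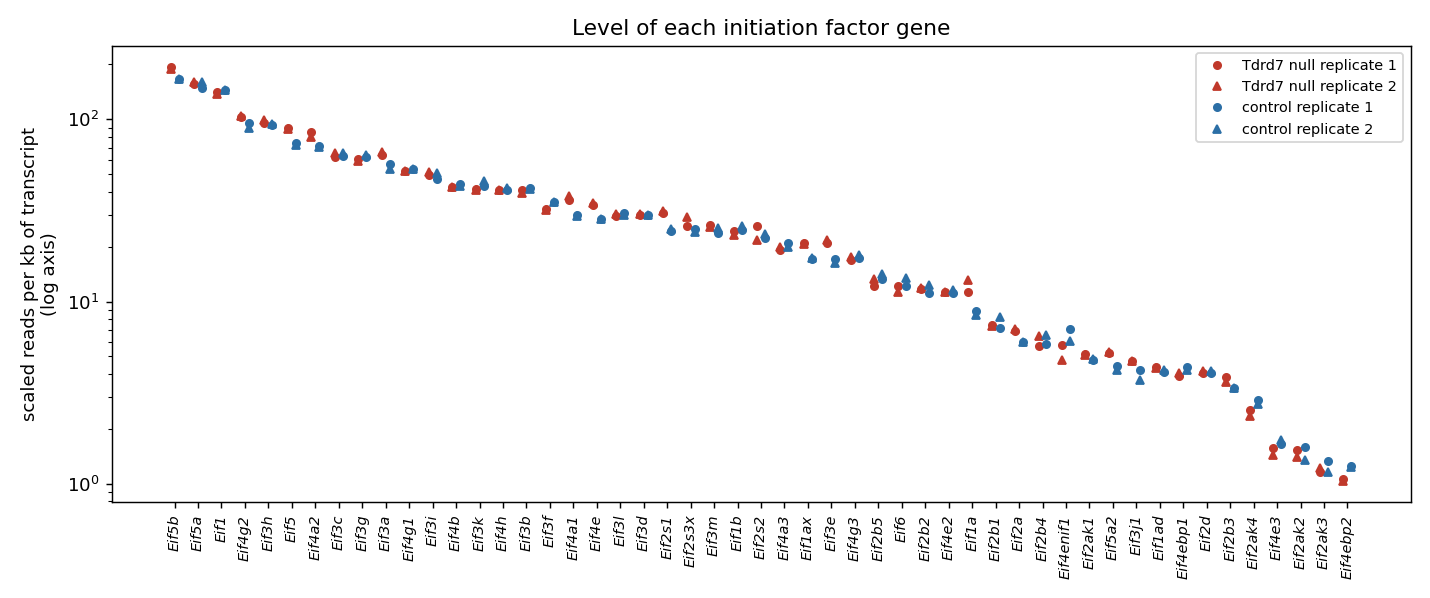
Level of each of the 51 genes in scaled reads per kb of the longest annotated transcript (vertical log axis), 1 symbol for each of the 4 libraries. Eif5b is highest at 191.6 in null lenses and 166.4 in control lenses, Eif4ebp2 and Eif2ak3 lie at the low end, with control means of 1.247 each.

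Genes called higher had transcripts of lower GC content than most of those not called, though the ranges overlapped (38.7% to 57.9% among those not called). Genes called higher had a median of 40.7% GC in the longest annotated transcript (range 36.2% to 46.3%), against 51.05% among those not called and 49.6% over all tested genes. Under 45% GC lay 17 of the 51 genes, all 17 with a positive log2 fold change and 13 of them called higher. Between 45% and 50% GC 1 of 12 was called higher, Eif4a1. At 50% GC or more, 0 of 22 were called higher and Eif4enif1 was lower. Over all tested genes the shares called higher in those 3 classes were 27.2%, 8.5% and 1.68%, and the shares called lower 0.398%, 2.59% and 14.9%. Across the 51 genes, which share their libraries, log2 fold change and GC content had a Pearson correlation of -0.739 and a Spearman correlation of -0.708. With the coding part alone the Pearson value was -0.717 (50 genes), and with the part after the stop codon -0.411 (49 genes). The 4 low-GC genes that did not pass were Eif2ak2, Eif2s2, Eif2s3x and Eif3m. Transcripts called higher were also longer, with a median of 4557 nt against 2550 nt for those not called and 3571 nt for all tested genes.

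**Figure D4:**
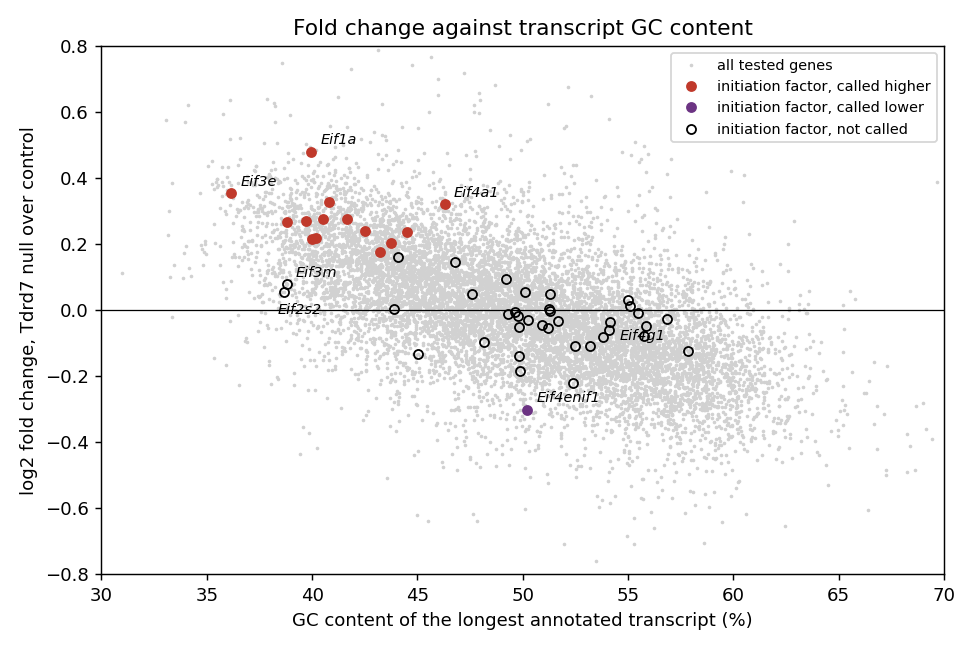
Log2 fold change, Tdrd7 null over control (vertical axis), against GC content of the longest annotated transcript in percent (horizontal axis); grey points are all tested genes within the axis limits and circles the 51 initiation factors, filled where called. Called circles above 0 all lie at 46.3% GC or below, and the grey cloud slopes the same way.

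Stretches of coding sequence show what base composition looks like in part of a gene, which can differ from that of the whole transcript. The 90 bases at the middle of the annotated coding sequence are printed for Eif3e, Eif1ax, Eif4a1 and Eif4e, which were higher, and for Eif5a, Eif4g1 and Eif3b, which were not called; the genes were chosen after their values were seen. They come from the GENCODE M21 transcripts, 5′ to 3′, with every G and C in capitals.
Eif3e: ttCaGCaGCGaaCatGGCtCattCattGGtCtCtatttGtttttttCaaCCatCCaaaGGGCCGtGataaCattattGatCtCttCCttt
Eif1ax: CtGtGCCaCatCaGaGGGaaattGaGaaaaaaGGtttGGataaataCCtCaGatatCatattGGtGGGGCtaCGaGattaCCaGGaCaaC
Eif4a1: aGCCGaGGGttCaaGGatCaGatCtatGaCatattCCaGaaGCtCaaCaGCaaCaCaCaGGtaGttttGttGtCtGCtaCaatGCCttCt
Eif4e: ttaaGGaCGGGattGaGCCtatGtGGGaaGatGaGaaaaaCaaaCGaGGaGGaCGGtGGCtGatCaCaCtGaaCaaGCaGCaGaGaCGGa
Eif5a: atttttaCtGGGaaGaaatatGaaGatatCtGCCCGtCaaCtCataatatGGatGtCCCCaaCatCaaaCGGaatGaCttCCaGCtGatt
Eif4g1: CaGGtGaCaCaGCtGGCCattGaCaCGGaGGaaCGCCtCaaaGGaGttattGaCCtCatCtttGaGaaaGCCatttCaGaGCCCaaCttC
Eif3b: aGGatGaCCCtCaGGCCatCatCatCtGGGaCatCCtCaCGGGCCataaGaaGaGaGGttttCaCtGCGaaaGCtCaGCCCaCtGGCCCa
G and C make 35 of the 90 bases in Eif3e, 38 in Eif1ax, 40 in Eif4a1, 45 in Eif4e, 35 in Eif5a, 45 in Eif4g1 and 50 in Eif3b. The log2 fold changes were 0.35 for Eif3e, 0.27 for Eif1ax, 0.32 for Eif4a1, 0.27 for Eif4e, 0.03 for Eif5a, -0.04 for Eif4g1 and -0.05 for Eif3b. In these stretches Eif4e, which was higher, has as many G and C as Eif4g1, and Eif5a, which was not called, as few as Eif3e. The longest annotated transcripts differ from this, with 40.5% GC for Eif4e, 54.2% for Eif4g1, 55.0% for Eif5a and 36.2% for Eif3e. The stretches therefore do not stand for the transcripts, on which the trend was measured.

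RefSeq promoter windows of 300 bases around the start (GRCm38.p6) were found for 42 of the 51 genes, and motifs were searched on both strands. The E-box CACGTG, the word bound by MYC and related factors, was in a window of 10 of the 42 genes (23.8%), against 8.09% of all genes with a window. It was in 4 of the 11 genes called higher that had a window: Eif3a, Eif4a1, Eif4e and Eif5a2. The ETS word CCGGAAG was in 16 of the 42 (38.1%; 9.93% of all genes), the GC box GGGCGG in 32 (76.2%; 38.2% of all genes), and TATAAA in 3 (7.14%; 15.7% of all genes). A match is a run of letters and not a shown binding site. All genes here means the 27025 genes with a window, and not only those tested in the lens. The windows of Eif4a1 (chr11:69672374-69672673, minus strand) and of Eif4e (chr3:138527018-138527317, plus strand, 1 of 2 windows) are printed because these are the eIF4F genes called higher whose windows hold the E-box, given in capitals.
Eif4a1: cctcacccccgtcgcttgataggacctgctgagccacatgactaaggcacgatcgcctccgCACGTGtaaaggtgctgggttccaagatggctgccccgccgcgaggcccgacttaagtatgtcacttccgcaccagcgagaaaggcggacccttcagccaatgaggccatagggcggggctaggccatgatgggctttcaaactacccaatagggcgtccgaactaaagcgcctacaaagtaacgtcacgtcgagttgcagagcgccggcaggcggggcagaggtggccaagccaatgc
Eif4e: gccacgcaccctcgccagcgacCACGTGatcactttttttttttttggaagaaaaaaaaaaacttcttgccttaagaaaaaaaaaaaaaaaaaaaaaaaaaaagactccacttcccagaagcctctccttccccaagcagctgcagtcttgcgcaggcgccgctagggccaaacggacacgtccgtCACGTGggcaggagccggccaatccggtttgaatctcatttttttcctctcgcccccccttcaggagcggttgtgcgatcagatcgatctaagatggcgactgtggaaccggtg

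Other genes of translation were taken from 4 lists, of which 71 genes were tested. In them 14 genes were higher (19.7%) and 5 were lower (7.04%), beside the 10.1% and 7.88% of all tested genes, and with the GC and length trend removed none of the 71 was called by limma, with 19 at an unadjusted p under 0.05. Without control replicate 1 or 2 the counts higher were 7 and 6, without Tdrd7 null replicate 2 there were 9, and without control replicate 1 none of the 71 was lower.

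Cofactors of initiation and poly(A)-binding factors had 8 of 23 genes higher and 1 lower, with a median log2 fold change of 0.10. Paip1, which links poly(A)-binding protein to the helicase, was at 65.9 and 69.5 scaled reads in null lenses and 52.0 and 51.4 in control lenses (log2 fold change 0.38, SE 0.0559, limma adjusted p = 0.00149). Bzw1, a mimic of eIF5 that sharpens start-codon choice, was at 194.8 and 199.9 in null lenses and 161.9 and 151.7 in control lenses (0.33, limma adjusted p = 0.00253). Values with the GC and length trend removed were 0.17 for Paip1 and 0.18 for Bzw1, neither called.

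Of 15 genes of elongation and termination 3 were higher and none lower, with a median of 0.08. Abce1, which splits ribosomes after termination, read 69.1 and 73.1 scaled reads in null lenses and 56.4 and 53.2 in control lenses (log2 fold change 0.37, SE 0.0580, limma adjusted p = 0.00218). Eef1b2, an exchange factor of elongation, and Etf1, the release factor that reads stop codons, had log2 fold changes of 0.27 each (limma adjusted p = 0.00500 and 0.00601). Values with the GC and length trend removed were 0.19 for Abce1 and 0.17 each for Eef1b2 and Etf1, none called.

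The mTORC1 pathway and the kinases of initiation had 3 of 23 genes higher and 2 lower, with a median of -0.05. Rps6kb1, the S6 kinase that mTORC1 activates, was at 31.1 and 30.1 scaled reads in null lenses and 24.5 and 23.5 in control lenses (log2 fold change 0.34, SE 0.0630, limma adjusted p = 0.00449). Rptor, the subunit that brings substrates to mTORC1, was at 28.5 and 27.8 in null lenses and 34.0 and 34.0 in control lenses (-0.26, SE 0.0600, limma adjusted p = 0.0116). Rheb, the GTPase that turns mTORC1 on, was at 35.4 and 33.9 in null lenses and 26.8 and 31.1 in control lenses (0.26, SE 0.0730, limma adjusted p = 0.0299). Rps6kb1 and Rheb thus rose while Rptor fell. With the GC and length trend removed the log2 fold changes were 0.16 for Rps6kb1, 0.18 for Rheb and -0.08 for Rptor, and none of the 3 was called.

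Genes known to be induced when eIF2 is phosphorylated had 0 of 10 higher and 2 lower, with a median of -0.15. Ppp1r15a (GADD34), which brings a phosphatase back to eIF2, was at 61.4 and 52.4 scaled reads in null lenses and 73.5 and 72.8 in control lenses (log2 fold change -0.36, SE 0.0692, limma adjusted p = 0.00514). Sesn2, a stress sensor that restrains mTORC1, was at 3.99 and 5.18 in null lenses and 9.09 and 5.61 in control lenses (-0.56, SE 0.163, limma adjusted p = 0.0333). Atf4, the transcription factor made from an mRNA that is read more when eIF2 is phosphorylated, was at 121.6 and 124.1 in null lenses and 139.6 and 132.2 in control lenses (-0.14, limma adjusted p = 0.0767) and did not pass. Removal of the GC and length trend left log2 fold changes of -0.24 for Ppp1r15a, -0.37 for Sesn2 and -0.05 for Atf4. None of the 3 was called then, and the median of the list was -0.09. RNA levels say nothing of phosphorylation or of translation, which were not measured.

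Together the 51 genes took 0.632% and 0.688% of the reads in null lenses and 0.609% and 0.594% in control lenses. Leaving crystallins out, which vary between libraries, the shares were 1.70% and 1.71% in null lenses and 1.61% and 1.60% in control lenses. The median log2 fold change of the 51 genes was 0.00, while genes of many reads weigh most in a summed share. Eif5b, which overlaps Rev1, averaged 1494 scaled reads in null lenses and 1297 in control lenses. With 2 libraries against 2, an exact permutation test cannot give a two-sided p below 0.333 for such a sum, and none was used. Between replicates the median absolute log2 difference of a gene was 0.04 in null lenses and 0.05 in control lenses, and the largest was 0.26 in null lenses and 0.21 in control lenses. Reads behind a value ran between 129 and 56987 per gene and library. Of the 51 genes, 15 share at least 100 nt of exon with another annotated gene on either strand, Eif4a1, Eif4a2, Eif4g2 and Eif5 among those called, besides Eif5b and Eif3j1. A further 4 of the uncalled genes (Eif1, Eif2s3x, Eif3h and Eif4a3) share over 10% of their 75-nt words with other genes, and all these values are uncertain to that extent. Of the genes of the other lists named above, Rps6kb1 and Eef1b2 share exon sequence in the same way.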

How the data were processed

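Polyadenylated RNA from 4 lens pools was read from both ends for 75 nt with a kit that does not mark strand, per the series' design text. Cuffnorm, Cufflinks, TopHat2 2.0.9 and Trimmomatic are listed, and mm10 (GRCm38) as build, per the submitters' processing notes; no source used here names the counting or scaling step. The deposited table holds 1 signal value per gene and library, which is a read count divided by a factor per library (1 read was worth 0.0266 and 0.0282 in null libraries, 0.0241 and 0.0237 in control libraries). Its 10790 genes all reach 1.02 in some library, so genes of few reads are not analysed here; 0 value columns belonged to other samples.

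The design assumed FPKM or whole counts. The values were neither, so log2(value + 1) was tested with limma 3.58.1 (R 4.3.3; intensity trend, two-sided, Benjamini-Hochberg) for 10696 genes with a mean of at least 1. This scale understates changes of low genes. The fit had 2 residual degrees of freedom and 11.1 from the prior. Named genes were every called member, the highest of each role, those next to the threshold, and up to 3 called genes of each other list by smallest p; genes beyond that rule were chosen after their values were seen. A result that the rule takes in is not reported here. The longest GENCODE M21 transcript gave each gene's GC content and length (10750 genes, all 51 factors). It may not be the transcript in the lens. For Eif3e it has 4123 nt, while the annotated coding part has 1335 nt with 141 nt after the stop codon. Splines on both, with 5 degrees of freedom each, were fitted in each library to log2(value + 1) minus the gene's mean, and subtracted. This removes trends between replicates as well as the trend of the fold change, so that SE and p change too. Coordinates equal GENCODE M21 for 30 of the 51 factors. A gene was called uncertain where it shared at least 100 nt of exon or over 10% of its 75-nt words with another gene (15 and 6 factors). The fits were tested on simulated data. The factors and lists were chosen with earlier results of these data known. Same-numbered replicates showed no positive correlation (see the closing section).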

Additional observations from a re-analysis of the deposited data

How the results depend on the processing

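All changes below are counts of genes called higher and lower in Tdrd7 null lenses, where the reported values are 14 and 1 of the 51 factors, 1077 and 843 of all genes, and 14 and 5 in the other lists. Of the 15 called factors 1 turned direction in a run, Eif4a2, at -0.05 with the GC and length trend removed and without Tdrd7 null replicate 1 (limma adjusted p = 0.694). Without the intensity trend in the prior the counts were 0 and 0 for the factors (17 at an unadjusted p under 0.05), 9 and 7 for all genes, and 0 and 0 for the other lists. With the GC and length trend removed they were 1 and 0 for the factors (14 at an unadjusted p under 0.05), 219 and 132 for all genes, and 0 and 0 for the other lists. Scaling without crystallins, which moved the median of all genes to -0.04, gave 10 and 2 for the factors, 766 and 1262 for all genes, 9 lower in the other lists, and a factor median of -0.0351. An adjusted p under 0.1 gave 2 lower factors and 1327 lower genes.

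Leaving out each library in turn gave 6 to 11 higher and 0 to 1 lower factors, 293 to 1166 higher and 138 to 1030 lower genes, 6 to 13 higher and 0 to 6 lower genes of the other lists, and a factor median between -0.00428 and 0.0466. Without control replicate 1 or 2 there were 6 higher factors each time, and without Tdrd7 null replicate 1 or 2 there were 11 and 9; Eif4enif1 was called without Tdrd7 null replicate 1 only. Eif1a, Eif2s1, Eif3e, Eif4a1 and Eif4e were called in all 4. A lone library is assumed there to vary like the other group. Leaving out Tdrd7 null replicate 1 gave the most called factors and also the most called genes over the whole table. The same held with the GC and length trend removed, so the factor counts are not to be read apart from those of all genes. With the GC and length trend removed as well (chosen after seeing the data), 1 to 3 factors were higher and 0 to 3 lower, Eif4a1 among them each time.

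Same-numbered replicates correlated at -0.151 in their deviations across genes, which share their libraries. This single value shows no positive pairing by number, and whether same-numbered libraries share a litter, day or batch was not tested. A replicate block gave 12 and 1 factors, 1144 and 973 of all genes, and 14 and 6 in the other lists; with the GC and length trend removed it gave 2 and 1 factors, 347 and 236 genes, 5 and 2 in the other lists, and a factor median of 0.0256, as without the block (0.0256). Pairing the numbers crosswise (chosen after seeing the data) gave 15 and 2 factors. In that fit 3036 of all tested genes were called either way, against 1920 in the reported fit. The prior had infinite degrees of freedom in the fit with the replicate block and in the crosswise fit. The causes were not tested.

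The deposited scaling equals TMM scaling, so that alternative changed nothing. Planned count models (edgeR, DESeq2) were not run, since they need counts as deposited, or reads recovered under a rule that takes the lowest value as 1 read; whole reads can be recovered here, but the lowest values hold at least 5 reads.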
